A study of Mus musculus with 12 samples.

Results

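The collagen gene family was taken as every gene of the deposited count table whose symbol is Col, a number, the letter a and a number. This rule found 44 of the 23420 genes in the table. Before testing, 18 of the 44 passed a filter on low counts, 6 of them classed as epithelial, 10 as stromal and 2 as other. The classes were set from the known biology of each collagen. Epithelial means made by keratinocytes or laid down in the basement membrane under them, stromal means part of the fibrils and microfibrils of connective tissue, and other holds the remaining genes. Measured were transcript counts in basal epithelial cells of the hard palate (rugae 1 to 8). All cells came from FVB mice with the genotype K5-tTA (+/-); tetO-H2B-GFP (+/-). The keratin 5 promoter thus sets which cells make the transactivator, and through it the histone H2B fused to GFP. Doxycycline stops new label, and every mouse was chased with it for 14 days, so that the label is diluted as cells divide. From each of 6 mice a GFP-HI library and a GFP-LO library were made from CD49f-stained sorted cells, and the submitters call them infrequently and frequently dividing cells. Mice B1M, B3M, B4M, B5M and B7M were at postnatal day 49 and B7F at day 71, so age was not separable from that mouse. Transgene and chase were shared by both fractions, and each library came from a pool of 200 to 1000 cells.

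Collagens are trimers of chains with long glycine-rich repeats. Keratinocytes anchor themselves with a few of them: collagen XVII spans the membrane in the hemidesmosome, collagen IV forms the sheet of the basement membrane, and collagen VII forms the anchoring fibrils that tie this sheet to the connective tissue. The fibrils of the lamina propria below, built on collagens I, III and V, are made mainly by fibroblasts. Here the epithelium had been lifted off that layer with dispase before the cells were stained.

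The libraries held 6678444 to 10547665 counts, of which the ribosomal RNA gene Rn45s took 31.5% to 59.8%. Collagens together had 15594 to 28156 counts per library. Levels are given as CPM, the counts of a gene relative to the effective (TMM) size of its library, and levels of different genes are compared only as CPM per kilobase of exon. Where a gene has no count, counting error alone allows 3, which is 0.258 to 0.433 CPM depending on the library. Of the basal keratinocyte markers, all 11 listed passed the filter. None was called, with 4 positive and 7 negative log2 fold changes and a median of −0.05. Krt5 was lower in GFP-HI in 6 of 6 mice (5194 ± 698 against 5827 ± 915 CPM, log2 −0.16, edgeR adjusted p = 0.42). Of all tested genes 5.9% had 1 direction in 6 of 6. Krt15 was higher in GFP-HI in 5 of 6 mice (559 ± 131 against 467 ± 177, log2 0.32, edgeR adjusted p = 0.48), and Krt14 in 2 of 6 (10198 ± 2894 against 10977 ± 1873; SD, n = 6). The summed level of this list was higher in GFP-HI in 1 of 6 mice. Of 11 suprabasal keratinocyte markers 9 were tested and 0 called, with a summed level of 4392 to 9302 CPM in GFP-HI against 4639 to 6762 for GFP-LO. Among them Krt13 had log2 0.42, Krt10 0.71, Krt76 −0.18 and Krt4 −0.58 (edgeR adjusted p = 0.64, 0.86, 0.80 and 0.81). In the lists for pericytes and smooth muscle (Cspg4, Notch3), melanocytes (Mitf, Pmel) and bone and cartilage (Runx2, Sox9) the 2 genes named of 6 were tested, in that for Merkel cells and nerve none, and 0 were called. Genes detected ranged from 12312 and 12810 in GFP-HI of B1M and of B3M to 19023 in GFP-HI of B7F.

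Collagen transcripts of these cells were mostly those of 1 gene, Col17a1. Its level per kilobase was 299 ± 20.5 CPM in GFP-HI against 314 ± 36.5 for GFP-LO (SD, n = 6). It made up 69.7% ± 2.29 and 73.5% ± 2.83 of the summed per-kilobase level of all 44 genes. Col8a1 came next, at 42.3 ± 5.14 and 34.8 ± 4.60 CPM per kilobase, followed by Col18a1 (23.7 ± 2.13 and 21.1 ± 1.66), Col7a1 (20.2 ± 4.86 and 18.8 ± 1.73), Col4a5 (13.6 ± 2.87 and 12.5 ± 0.631) and Col4a6 (8.57 ± 1.13 and 7.31 ± 1.07). The ranges of Col17a1 and Col8a1 over the 12 libraries did not overlap, nor did those of Col8a1 and Col18a1. From Col18a1 downwards each gene overlapped the next in range. Col18a1 was above Col7a1 in 11 of 12 libraries and Col7a1 above Col4a5 in 12 of 12, whereas Col23a1, Col16a1 and Col12a1, at 2.52, 2.21 and 2.10 CPM per kilobase over all libraries, changed places from library to library. Among all 11719 tested genes Col17a1 ranked 187 in GFP-HI and 156 in GFP-LO by CPM per kilobase, and Col8a1 916 and 1076.

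**Figure D1:**
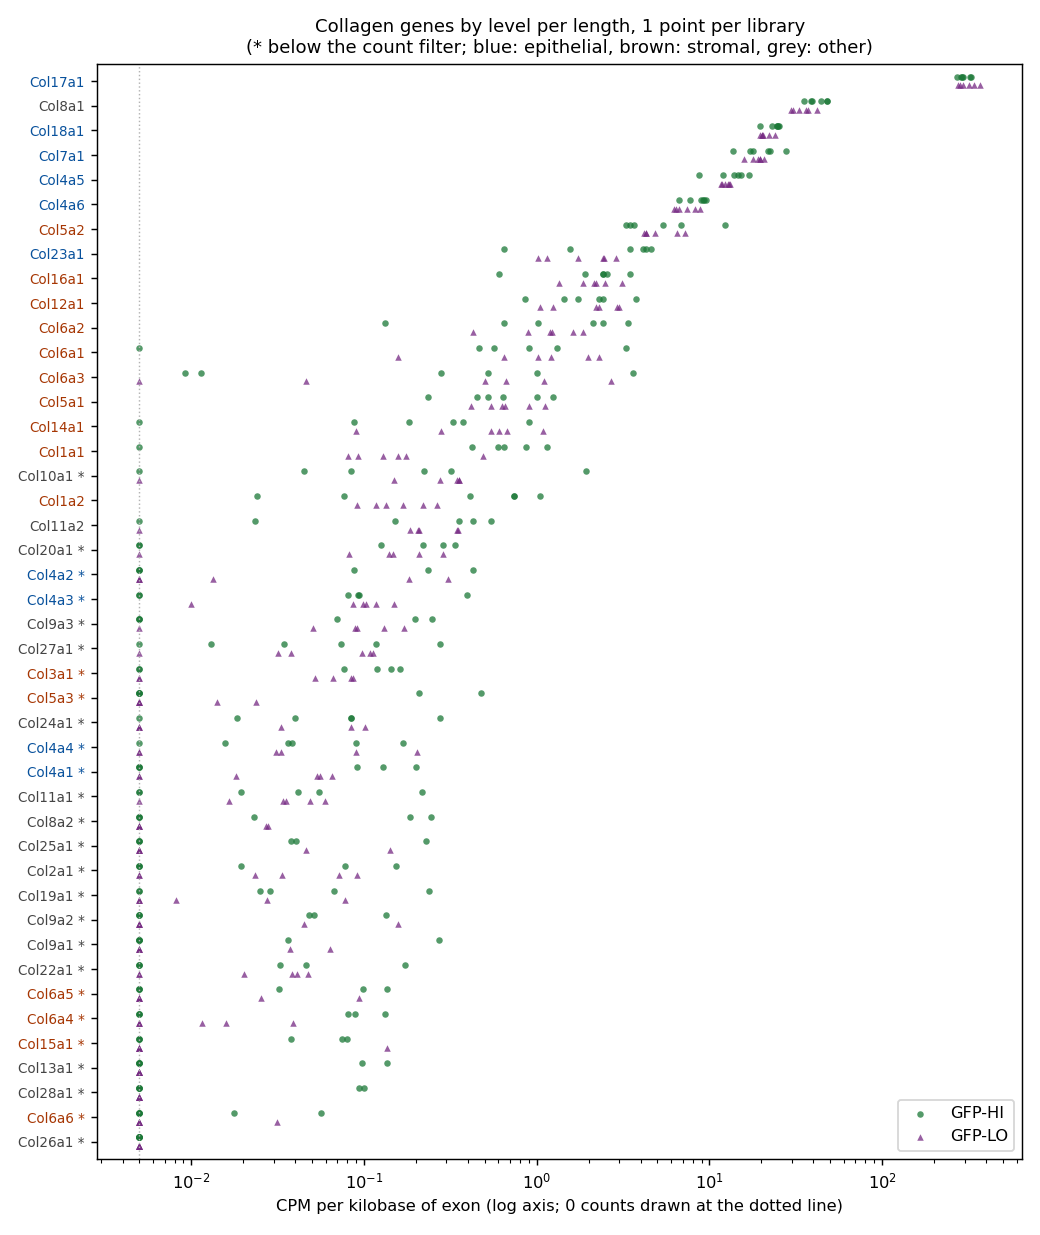
Level of each of the 44 collagen genes in CPM per kilobase of exon (log axis), 1 point per library, green circles GFP-HI and purple triangles GFP-LO, with 0 counts drawn at the dotted line. Col17a1 lies between 273 and 371 in all 12 libraries, above every point of the other genes, and the 26 genes marked with a star were below the count filter.

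No collagen gene was called different between the fractions by edgeR's quasi-likelihood test with mouse as a block. At an adjusted p (Benjamini-Hochberg over all 11719 genes) under 0.05, 0 of 18 were higher and 0 were lower in GFP-HI, beside 0.469% of all tested genes called higher and 0.0597% lower (0.529% in all). At an unadjusted p under 0.05 there was 1 collagen, Col8a1, on the higher side, against 7.24% of all genes (4.3% higher and 2.94% lower). DESeq2 also called 0, with 2 of 18 at an unadjusted p under 0.05, and gave no adjusted p for 7 members with low counts. Over all 11719 genes DESeq2 called 120 higher and 23 lower and gave no adjusted p for 3408. Its share of all genes at an unadjusted p under 0.05 was not counted. Of the 18 genes 10 had a positive log2 fold change (GFP-HI over GFP-LO) and 8 a negative one, with a median of 0.05, against −0.02 over all genes. The CPM ranges of the fractions overlapped for all 18, as they did for all but 0.196% of tested genes. The replicates are separate mice, and fewer cells of a type cannot be told apart from less RNA per cell in sorted pools such as these.

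**Figure D2:**
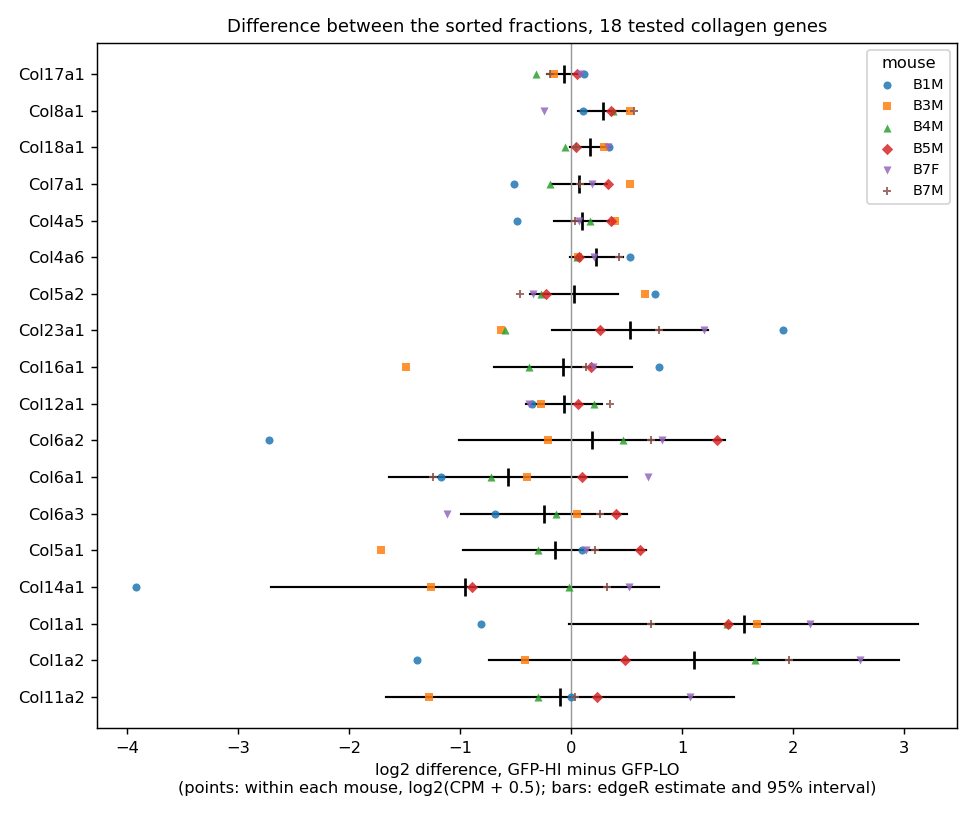
Log2 difference between GFP-HI and GFP-LO for the 18 tested collagen genes, ordered by level. Coloured points are the 6 mice on the log2(CPM + 0.5) scale, and black bars are the edgeR estimates with 95% intervals, narrowest for Col17a1 (−0.21 to 0.08) and widest for Col1a2 (−0.73 to 2.95).

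Col17a1 encodes the hemidesmosomal collagen also called BP180 (chromosome 19, 47646341 to 47692042, mm10, 53 exon intervals). Its 6 GFP-HI libraries ran from 1481 CPM over a median of 1588 to 1768, and its 6 GFP-LO libraries from 1493 over 1667 to 2012. The highest library was GFP-LO of B7M and the lowest GFP-HI of B4M, and 3 of 6 mice had more in GFP-HI. The log2 fold change was −0.07 ± 0.07 (SE, n = 6), with a 95% interval of −0.21 to 0.08 and an edgeR adjusted p of 0.86. On the linear scale this interval runs from 0.863 to 1.06, the narrowest of the family.

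Col7a1, the anchoring fibril collagen (chromosome 9, 108953745 to 108984875, 118 exon intervals), ran from 127 CPM over a median of 183 to 254 in GFP-HI and from 145 over 178 to 190 in GFP-LO. The extremes were both GFP-HI libraries, B1M at the bottom and B3M at the top. The log2 fold change was 0.07 ± 0.12 (SE; interval −0.17 to 0.32, edgeR adjusted p = 0.92). Its exons share 36 bases, 0.391% of its length, with the microRNA gene Mir711 on the same strand.

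Col18a1, whose basement membrane proteoglycan is the source of endostatin (chromosome 10, 77052179 to 77166530), had 114 to 147 CPM in GFP-HI (median 143) and 113 to 138 in GFP-LO (median 118). The GFP-HI level was higher in 5 of 6 mice, all but B4M, and the log2 fold change was 0.17 ± 0.08 (SE; interval −0.01 to 0.35, edgeR adjusted p = 0.70). RefSeq lists a pair of start sites for this gene, and counts per gene do not tell them apart. Col23a1, a transmembrane collagen, varied more, from 3.67 to 25.9 CPM in GFP-HI and from 5.78 to 16.3 in GFP-LO. In B1M its GFP-HI library had 25.9 against 6.53 CPM, while in B3M and B4M the order was turned. Its log2 fold change was 0.53 ± 0.33 (SE; interval −0.17 to 1.23, edgeR adjusted p = 0.78), and it ranged from 0.26 without B1M to 0.79 without B3M, not called in either. Added up, the 10 epithelial collagens came to 2109 ± 122 CPM in GFP-HI against 2140 ± 211 for GFP-LO (SD, n = 6), a mean log2 difference within mice of −0.02 ± 0.150 (SD), positive in 3 of 6. Without Col17a1, which makes up most of this sum, the other 9 came to 488 ± 59.4 against 437 ± 17.8 CPM, a difference of 0.15 ± 0.164, positive in 4 of 6. Of the 6 epithelial collagens tested, 5 had positive fold changes and Col17a1 a negative one, none of them called. That of Col7a1 was −0.014 without B3M. Leaving out Col17a1 thus left only positive ones by choice. Of all 11719 tested genes 5501 had a positive fold change.

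Collagen IV genes lie in head-to-head pairs, and the pairs were at very different levels. Col4a6 and Col4a5, whose chains assemble together in the basement membrane of skin, lie on chromosome X with 1342 bases between their outermost exons (141165403 to 141474076 and 141475419 to 141689235) and had 5413 and 8595 counts over the 12 libraries. Col4a1 and Col4a2, which encode the chains found in nearly all basement membranes, lie on chromosome 8 with 2 bases between them (11198423 to 11312826 and 11312829 to 11449287) and had 32 and 67 counts. Col4a4 and Col4a3, known from the kidney glomerulus, lie on chromosome 1 with 71 bases between them and had 45 and 84 counts. The 4 windows below show where the pair with counts and the pair almost without counts start. They run from 250 bases before to 50 after the RefSeq start (GRCm38.p6), written in the direction of each gene, with GGGCGG (GC box) and CCAAT, on either strand, in capitals.
Col4a6, chrX:141474027-141474326, minus strand: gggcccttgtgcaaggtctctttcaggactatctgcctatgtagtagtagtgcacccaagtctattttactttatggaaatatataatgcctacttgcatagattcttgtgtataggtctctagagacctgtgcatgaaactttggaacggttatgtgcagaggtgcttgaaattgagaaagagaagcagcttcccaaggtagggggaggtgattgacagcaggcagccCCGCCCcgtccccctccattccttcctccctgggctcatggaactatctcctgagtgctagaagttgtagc
Col4a5, chrX:141475169-141475468, plus strand: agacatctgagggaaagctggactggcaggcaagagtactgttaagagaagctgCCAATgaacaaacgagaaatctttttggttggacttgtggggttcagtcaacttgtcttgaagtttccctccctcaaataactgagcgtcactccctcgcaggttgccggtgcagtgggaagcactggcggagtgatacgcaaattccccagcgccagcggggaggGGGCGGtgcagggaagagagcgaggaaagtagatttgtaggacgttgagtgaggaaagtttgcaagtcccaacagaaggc
Col4a1, chr8:11312777-11313076, minus strand: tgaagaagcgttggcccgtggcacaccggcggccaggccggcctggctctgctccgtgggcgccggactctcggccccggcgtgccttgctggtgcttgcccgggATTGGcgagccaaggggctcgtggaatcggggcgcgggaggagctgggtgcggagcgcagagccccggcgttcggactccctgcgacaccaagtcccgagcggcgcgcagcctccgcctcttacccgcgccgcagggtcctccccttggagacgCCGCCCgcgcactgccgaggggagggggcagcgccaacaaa
Col4a2, chr8:11312555-11312854, plus strand: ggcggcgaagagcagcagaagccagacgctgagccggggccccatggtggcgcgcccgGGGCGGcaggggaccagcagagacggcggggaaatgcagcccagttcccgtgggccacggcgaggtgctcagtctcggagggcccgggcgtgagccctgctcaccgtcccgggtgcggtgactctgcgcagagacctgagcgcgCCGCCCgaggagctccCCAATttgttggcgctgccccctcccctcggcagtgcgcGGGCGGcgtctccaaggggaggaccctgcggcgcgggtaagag

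All 4 windows hold GGGCGG on 1 strand or the other, and CCAAT is in those of Col4a5, Col4a1 and Col4a2. Those of Col4a1 and Col4a2 share 78 bases. Among all 32851 RefSeq windows of this length GGGCGG occurs in 35.7%, CCAAT in 37.4% and TATAAA in 13.6%, and TATAAA is in none of the 4. RefSeq windows were found for 35 of the 44 collagens, 38 windows in all, of which 23 hold GGGCGG, 13 CCAAT and 5 TATAAA. These matches are descriptions of letters, not of bound sites.

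Col4a5 ran from 56.7 CPM over 92.5 to 110 in GFP-HI and from 75.9 over 81.6 to 85.6 in GFP-LO. The spread was in GFP-HI, where B1M was lowest and B3M highest. The log2 fold change was 0.10 ± 0.11 (SE; interval −0.15 to 0.34, edgeR adjusted p = 0.88). Col4a6 ran from 44.2 over 60.2 to 63.7 CPM in GFP-HI and from 41.7 over 46.7 to 58.8 in GFP-LO. It was the 1 collagen of 18 with the same direction in all 6 mice, higher in GFP-HI, by 0.06 to 0.54 on the log2 scale, where 5.9% of all tested genes had 1 direction in 6 of 6. The log2 fold change was 0.23 ± 0.11 (SE; interval −0.01 to 0.47, edgeR adjusted p = 0.70), and the exact two-sided sign-flip permutation p was 0.03125, the smallest that 6 pairs allow, or 0.56 adjusted over the 18 collagens. Per kilobase, Col4a5 was above Col4a6 in 11 of 12 libraries, by 1.64-fold in the means, and the exception was the GFP-HI library of B1M.

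Col8a1 encodes a short collagen of hexagonal networks, known from Descemet's membrane of the cornea and from vessel walls, and was the second collagen of these cells. The gene lies on chromosome 16, 57624256 to 57754737, with 4 exon intervals, and shares no exonic base with another gene of the table. It had 20132 counts over the 12 libraries. Col8a2, the gene of its partner chain, had 19, of which 17 were in GFP-HI and at most 8 in any library. Col8a1 ran from 181 CPM over a median of 214 to 244 in GFP-HI and from 153 over 176 to 214 in GFP-LO. It was higher in GFP-HI in 5 of 6 mice, by 0.11 to 0.57 on the log2 scale, and lower in B7F, by −0.24. The log2 fold change was 0.29 ± 0.10 (SE; interval 0.07 to 0.50), or 1.22-fold, with an unadjusted p of 0.014 and an edgeR adjusted p of 0.51. Over the alternative settings its adjusted p ran from 0.13 (without B7F) to 0.999 (without the mouse block), so that no setting called it.

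Endothelial markers were low but not absent. Pecam1, the 1 of 8 that was tested, had counts in 9 libraries, up to 47 in GFP-HI of B5M (2.19 ± 1.89 against 1.18 ± 0.998 CPM, log2 0.67 ± 0.74 SE, edgeR adjusted p = 0.87). Vwf reached 20 counts, Tek 11, Kdr 7, Cdh5 5, Cldn5 2 and Tie1 1, and Emcn had none. The summed level of the list was 0 to 6.85 CPM over the GFP-HI and 0 to 3.17 over the GFP-LO libraries, and higher in GFP-HI in 5 of 6 mice. The exception was B3M, at 0 CPM in GFP-HI against 0.773 for GFP-LO. The part of endothelial cells in the Col8a1 level was not tested.

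Among the stromal collagens only Col5a2, Col12a1 and Col16a1 had 20 or more counts in every library. Col5a2, a chain of the collagen V that starts collagen I fibrils, was the highest of the class at 5.82 ± 3.45 CPM per kilobase in GFP-HI against 5.22 ± 1.32 for GFP-LO (SD, n = 6). Its usual partner Col5a1 was below it in 12 of 12 libraries, at 0.682 ± 0.372 and 0.711 ± 0.254. Col5a1 had a log2 fold change of −0.14 ± 0.38 (SE; interval −0.97 to 0.68, edgeR adjusted p = 0.95). Col3a1, the neighbour of Col5a2 on chromosome 1 at 24624 bases, had at most 9 counts. Col5a2 ran from 21.9 CPM over 29.9 to 81.2 in GFP-HI and from 27.8 over 30.1 to 47.7 in GFP-LO. GFP-HI of B1M and of B3M, lowest in genes detected, stood at 81.2 and 45.2 CPM, and in the other 4 mice GFP-HI was below GFP-LO. The log2 fold change of 0.03 ± 0.18 (SE; interval −0.37 to 0.42, edgeR adjusted p = 0.98) thus joins both directions, and without B1M and B3M it was −0.33 (edgeR adjusted p = 0.38).

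Col12a1 and Col16a1 encode collagens that attach to the surface of fibrils. Col12a1 ran from 9.98 to 43.8 CPM in GFP-HI and from 12.1 to 35.0 in GFP-LO, and it was high or low by mouse rather than by fraction, lowest in B3M and B4M in both. Col16a1 ran from 3.15 to 17.98 CPM and from 7.04 to 16.3. Their log2 fold changes were −0.06 and −0.07 (intervals −0.40 to 0.28 and −0.69 to 0.55). Col14a1, of the same group, had 0 to 5.79 CPM in GFP-HI and 0.578 to 7.04 in GFP-LO. Its highest value, GFP-LO of B1M, stood beside 0 counts in GFP-HI of the same mouse. The log2 fold change of Col14a1 was −0.96 ± 0.81 (SE; interval −2.70 to 0.79, edgeR adjusted p = 0.84).

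Fibroblast markers were measured in the same libraries. Of the 13 listed, 5 had at most 3 counts in any library, among them Pdgfra, Dpt and Pi16, and Lum reached 7 counts in GFP-HI of B7F and was at 0 in 9 libraries. The summed level of the list was 48.3 to 103 CPM in GFP-HI and 64.4 to 81.4 in GFP-LO, nearly all of it from Thy1 and Fbln1, which were not called (log2 0.13 and −0.0035, with edgeR adjusted p = 0.89 and 1.00). Vim had log2 1.08, Clec3b −0.93 and Fbln2 0.01 (edgeR adjusted p = 0.80, 0.82 and 1.00), and the summed level was higher in GFP-HI in 4 of 6 mice. The 16 stromal collagens added up to 110 ± 21.5 CPM in GFP-HI against 101 ± 14.4 for GFP-LO (SD, n = 6), a mean log2 difference within mice of 0.11 ± 0.121 (SD), positive in 5 of 6. Without the 3 genes with the most counts, Col5a2, Col12a1 and Col16a1, the sum was 35.6 ± 25.5 against 30.4 ± 11.2 CPM. The mean difference was then −0.15 ± 1.03, though positive in 4 of 6, and its sign rested on B1M. That mouse had the lowest difference, −2.08, with 4.54 against 19.2 CPM (37 and 153 counts), and the highest of the 6 was 0.71.

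Col6a3, a chain of the beaded collagen VI microfibrils, differed more between mice than between fractions. In B5M it was at 38.9 CPM in GFP-HI and 29.3 in GFP-LO, in B4M at 10.9 and 12.0, in B3M at 5.65 and 5.41, in B7F at 3.03 and 7.16, in B1M at 0.123 and 0.503, and in B7M at 0.0999 and 0. Both fractions of a mouse were thus high or low together, with counts from 0 or 1 to 389. The SD of the mouse means was 2.29 on the log2 scale, 3.90 times the SD of the within-mouse differences, the largest such ratio among the 18. Col12a1 and Col6a1 followed at 2.09 and 1.76, and for 14 genes the ratio was below 1. A ratio below 1 does not show that mice were alike, since the mean of a pair varies less than its difference even without a mouse effect. The other main chains, Col6a1 and Col6a2, did not share the order of mice: their highest CPM values, 13.03 and 12.6, were in GFP-HI of B7F. The fibroblast list was at 77.4 and 79.9 CPM in B5M, within the range of the other mice. The leukocyte list was highest in the GFP-HI and GFP-LO libraries of B5M, at 23.2 and 31.9 CPM against 2.40 to 16.6 and 0.251 to 21.7 in the others, and its part in the Col6a3 level was not tested. The 2 tested genes of that list, Cd74 and Itgam, had log2 −0.60 and −0.14 (edgeR adjusted p = 0.81 and 0.98). Between the fractions Col6a3, Col6a1 and Col6a2 had log2 fold changes of −0.24, −0.56 and 0.19 (edgeR adjusted p = 0.91, 0.84 and 0.96).

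**Figure D3:**
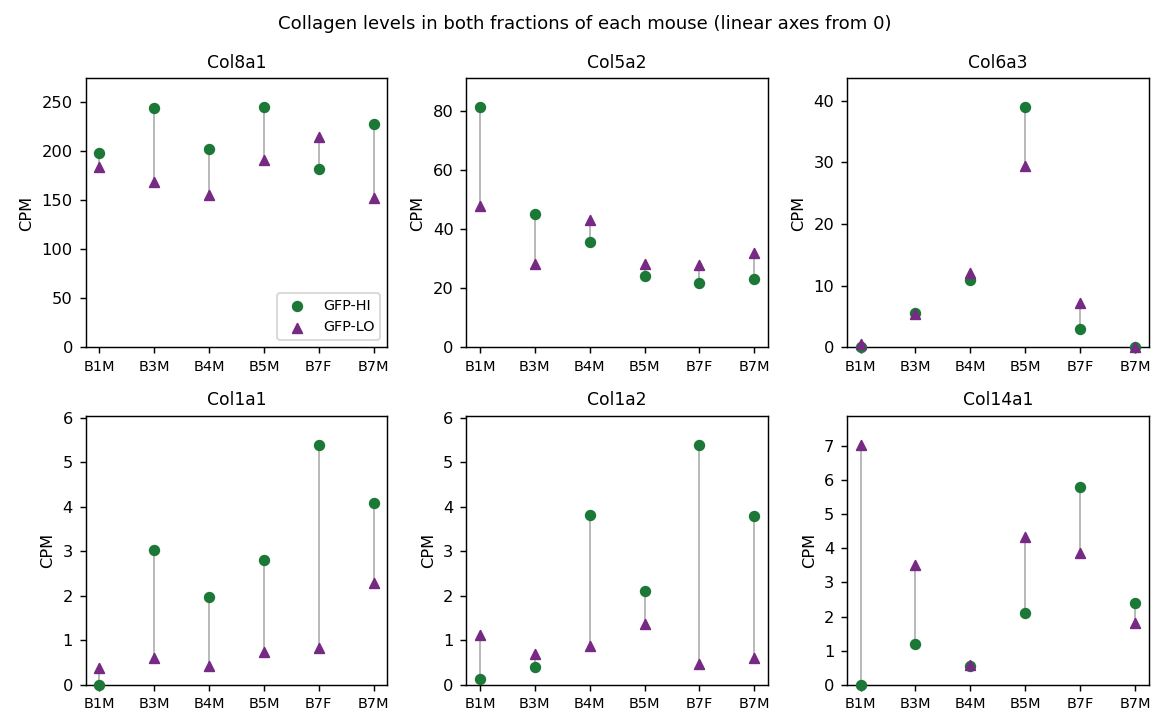
CPM of 6 collagen genes in the GFP-HI (green circles) and GFP-LO (purple triangles) library of each mouse, joined by a line, on linear axes from 0. Col8a1 lies higher in GFP-HI in 5 of 6 mice, Col6a3 differs between mice far more than between fractions, and Col1a1 and Col1a2 stay below 6 CPM.

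Col1a1 and Col1a2, the chains of collagen I and the mark of fibroblasts and bone cells, were near the limit of detection. Col1a1 had 0 to 41 counts in GFP-HI and 3 to 19 in GFP-LO, or 0 to 5.40 CPM (median 2.91) and 0.377 to 2.29 CPM (median 0.671). Col1a2 had 1 to 41 and 4 to 11 counts, or 0.123 to 5.40 CPM (median 2.95) and 0.470 to 1.36 CPM (median 0.777). Col1a1 was above its GFP-LO partner in 5 of 6 mice and Col1a2 in 4 of 6, and in B1M both were below it. The log2 fold changes were 1.55 ± 0.73 and 1.11 ± 0.85 (SE; intervals −0.02 to 3.13 and −0.73 to 2.95; edgeR adjusted p = 0.69 and 0.82), so that folds of up to 8.75 and 7.74 lie within the intervals.

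Without mice B1M and B3M, chosen for the low number of genes detected in their GFP-HI libraries, Col1a2 was called higher in GFP-HI (log2 2.14 ± 0.51 SE, n = 4, edgeR adjusted p = 0.030), 1 of 19 collagens tested, where 0.979% of all genes were called higher. B1M and B3M were also the 2 mice in which Col1a2 was lower in GFP-HI, by −1.39 and −0.41 on the log2 scale. The choice of mice and this call were therefore not independent. Col1a1 then had 1.80 ± 0.48 and was not called (edgeR adjusted p = 0.063). Col1a2 was tested in 10 of the 13 alternative settings, since it fell below the filter in the other 3, and DESeq2 gave it no adjusted p. In the remaining ones the adjusted p ran from 0.030 to 0.999, and none but this called it. Leaving out 1 mouse moved its log2 fold change from 0.59 (without B7F) to 1.70 (without B1M). In these 4 mice Col1a2 had 21 to 41 counts in GFP-HI and 4 to 11 in GFP-LO. Other transcripts of mesenchymal cells, picked after their values were seen, went both ways in these mice. Vim had 12, 19, 38 and 27 counts in the GFP-HI libraries of B4M, B5M, B7F and B7M, and 6, 24, 13 and 1 in GFP-LO, but its highest count of all, 57, was in GFP-HI of B1M, which had no Col1a1 count. Pcolce, which speeds the trimming of procollagen I, had 5, 3, 94 and 9 against 1, 2, 8 and 3. Acta2, a smooth muscle and myofibroblast actin, had 4, 19, 91 and 18 against 5, 7, 17 and 12. By contrast, the fibroblast genes Clec3b and Fbln2 had 10, 18, 11 and 27 against 12, 8, 18 and 37, and 4, 44, 29 and 24 against 4, 61, 36 and 18. GFP-HI of B7F was the highest of the 12 libraries in CPM for Pcolce, Acta2, Lum, Col1a1 and Col1a2. It also had the most genes detected, 19023. The summed fibroblast list was instead highest in GFP-HI of B1M, at 103 CPM against 89.9 in GFP-HI of B7F. The part of other cells in the sorted pools in these counts was not tested.

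The 26 collagens below the filter had 863 counts together over the 12 libraries. Col26a1 had none, 14 genes including it stayed under 10 in every library, and the highest single count was 46, of Col10a1 in GFP-HI of B3M. Col10a1, a collagen of hypertrophic cartilage, otherwise had 0 to 13. The basement membrane chains Col4a3, Col4a2, Col4a4 and Col4a1 reached 24, 21, 11 and 10 counts in their highest library. Among fibril-forming chains Col5a3 reached 22, Col27a1 16, Col24a1 15, Col11a1 12, Col3a1 9 and Col2a1 6. Collagens that attach to fibrils were as low, with 19 for Col19a1, 14 for Col20a1, 8 for Col9a1 and Col22a1, 7 for Col9a3 and 3 for Col9a2. Of the transmembrane collagens Col25a1 reached 13 and Col13a1 3. Col6a5, Col6a4 and Col6a6, further chains of collagen VI, reached 9, 7 and 3, and Col8a2, Col15a1 and Col28a1 reached 8, 5 and 3. Summed over mice, 24 of the 26 had more counts in GFP-HI (545 against 318 in all). So did 63.7% of all genes below the filter with at least 1 count, and 66.4% of those with a summed count in the same range. In CPM by mouse none of the 26 was higher in GFP-HI in more than 4 of 6 mice, and 3 were in 4. Many had 0 counts in both fractions of some mice, and such a mouse counts for neither direction. The numbers by mouse therefore cannot be set against the sums. GFP-HI of B7F held 210 of the counts and had the highest count of 13 of the genes, whereas GFP-HI of B1M held 4. Of Col9a3's exonic bases 8.05% are shared with Tcfl5 on the other strand, and no strand setting is given, so its 26 counts are uncertain.

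The number of collagens with at least 1 count moved with the number of all genes detected. It was 16 and 24 of 44 in GFP-HI of B1M and B3M and 41 in GFP-HI of B7F. Over the fractions it was 31.2 ± 9.95 in GFP-HI against 30.5 ± 5.99 for GFP-LO (SD, n = 6). In the edgeR fit without a count filter, which included 25 of the 26, 0 were called. None had an unadjusted p under 0.05 in that fit (the smallest was 0.17, adjusted 0.995). Of all 21827 genes in it, 127 were called higher and 45 lower. With so few called among all genes, 0 of 25 is no result about these members. Col11a2, the lowest that was tested, had at most 24 counts and a log2 fold change of −0.10 with an interval of −1.66 to 1.47.

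**Figure D4:**
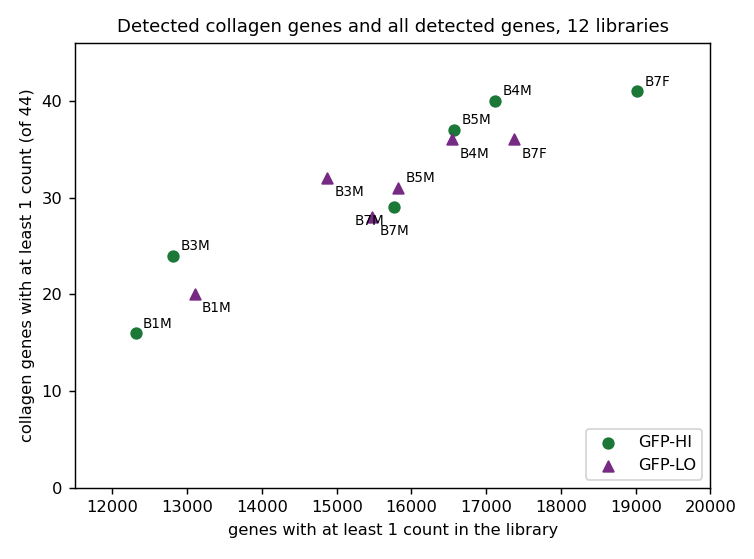
Number of collagen genes with at least 1 count (of 44) against the number of all genes with at least 1 count, for the 12 libraries, labelled by mouse. GFP-HI of B1M lies lowest at 16 collagens and 12312 genes, and GFP-HI of B7F highest at 41 and 19023.

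Genes that fold, secrete, anchor, bind and cut collagens were followed beside the family, and none of them was called in either direction. Of 22 genes for folding and secretion 19 were tested, with 13 positive and 6 negative log2 fold changes and a median of 0.05. Serpinh1, the collagen chaperone HSP47, was at 111 CPM in GFP-HI against 122 for GFP-LO (log2 −0.14 ± 0.09 SE, edgeR adjusted p = 0.78). Ctage5, a helper of collagen export from the endoplasmic reticulum, was at 36.0 against 45.4 CPM (log2 −0.36 ± 0.19, edgeR adjusted p = 0.72). Lepre1 and Crtap, which work in 1 complex that hydroxylates proline, had log2 0.50 and −0.18 (edgeR adjusted p = 0.80 and 0.86). Of 16 listed genes that trim and crosslink collagens 5 were tested. The summed level of the list was higher in GFP-HI in 4 of 6 mice. Among those below the filter, the crosslinking enzyme Tgm2 was picked after its values were seen. Its level was 2.88 ± 3.45 CPM in GFP-HI against 0.204 ± 0.193 for GFP-LO (SD, n = 6), with more in GFP-HI in 6 of 6 mice. The GFP-LO mean lies below the 0.258 to 0.433 CPM that counting error allows at no count, so no fold can be given. Of genes below the filter 63.7% had more summed counts in GFP-HI, and their share with 6 of 6 mice was not counted. Bmp1, the procollagen C-proteinase, had log2 −0.14 and the crosslinking oxidases Loxl2, Loxl3 and Loxl4 had 0.62, 0.60 and −0.18 (edgeR adjusted p between 0.85 and 0.87).

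The partners that hold collagens XVII and VII in place include the laminin-332 chains, integrin α6β4 and the plakin Dst. In this list 11 of 11 were tested, 4 positive, with a median of −0.02, the same as over all genes. Dst was at 1214 CPM in GFP-HI against 1292 for GFP-LO, Itga6 at 563 against 611, and Itgb4 at 369 against 392 (log2 −0.10, −0.12 and −0.08, edgeR adjusted p = 0.80, 0.77 and 0.86). Adam17, a protease that sheds the outer part of collagen XVII, was at 62.3 against 71.5 CPM (log2 −0.23, edgeR adjusted p = 0.80). Of the collagen receptors 5 of 10 were tested. Itga2 and Itga1, the α chains of collagen-binding integrins, had log2 −0.16 and 0.93, Mrc2, an uptake receptor, −0.22, and Ddr1, a collagen-binding kinase, 0.08 (edgeR adjusted p between 0.82 and 0.85).

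Of the enzymes that cut collagens and their inhibitors 5 of 11 were tested. Timp3, an inhibitor of metalloproteinases that is held in the matrix, was at 61.5 ± 29.4 CPM in GFP-HI against 37.2 ± 22.0 for GFP-LO (SD, n = 6) and missed the threshold (log2 0.74 ± 0.15 SE, edgeR adjusted p = 0.054), with more in GFP-HI in 6 of 6 mice. Timp2, of the same family, had log2 0.21, the membrane-bound Mmp15 −0.24 and the gelatinase Mmp2 −0.39 (edgeR adjusted p = 0.85, 0.81 and 0.84).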

How the data were processed

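The authors deposited 1 table of raw read counts per gene, with the exonic length of each gene as another column, per the file headers. The submitters' processing notes name featureCounts, the builds mm10 and GRCm38, bcl2fastq 2.20.0, FastQC, DESeq2 and R 3.4.1. Which aligner and annotation release were used, and how strand and multiply mapping reads were handled, is not given in the sources used here. Groups and animal codes came from the sample labels, which name no batch. The paired fractions of a mouse deviated together from their group means across genes (correlations 0.24, 0.26, 0.23, 0.49, 0.39 and 0.46 in B1M, B3M, B4M, B5M, B7F and B7M; at most 0.26 with another mouse), and mouse was a block.

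Counts were tested in R 4.3.3 with edgeR 4.0.16 (quasi-likelihood, two-sided). The filter asked for a minimum count of 10 and a minimum total of 15 and kept 11719 genes. CPM used effective library sizes from TMM, and intervals are 95%. On simulated counts of the 6 pairs over 11719 genes, 35 of 100 genes changed 1.5-fold and 51 of 100 changed 2-fold were recovered, with 9 false calls. Alternatives were DESeq2 1.42.0, RLE size factors, other filters, no block, removal of Rn45s, and leaving out mice. Within-mouse differences used log2(CPM + 0.5).

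The family, its classes and the gene lists were chosen with earlier results of these data known. By rule, tested members were described with their values and untested ones named with their highest count. From the other lists up to 4 tested genes with the smallest p were named. Untested genes of those lists, and Fbln1, were added after their values were seen. Promoter windows came from RefSeq (GRCm38.p6), matched by symbol.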

Additional observations from a re-analysis of the deposited data

Results flagged for a closer look

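Checked for a single value far from the other 5 were 58 sets of 6 values. Some were the 6 libraries of a fraction and others the 6 within-mouse differences made from them. Of the 58 sets 2 had such a value, and chance alone sets apart about 1 in 20. Col6a3 reached 38.9 CPM in GFP-HI of B5M, against 0.0999 to 10.9 in the other GFP-HI libraries. GFP-LO of the same mouse was also the highest of its fraction, at 29.3 CPM. Col1a1 reached 2.29 CPM in GFP-LO of B7M, against 0.377 to 0.822 in the other GFP-LO libraries, which rests on 19 counts against 3 to 7.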

How the results depend on the processing

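In every setting tried but 1, no collagen was called in either direction. The exception was the fit without mice B1M and B3M, which called 1 collagen higher, Col1a2. Without the replicate block 0 collagens were called, but that fit called 0 of all 11719 genes in either direction. Its 0 is therefore no result about collagens. In it 3 of 18 collagens had an unadjusted p under 0.05. The block left the log2 fold changes of 3 genes with the other sign than the fit without it, which gave 0.12 for Col6a3, 0.22 for Col11a2 and 0.021 for Col16a1. Without B1M and B3M the sign also turned for Col5a2 (−0.33), Col11a2 (0.36), Col5a1 (0.20), Col16a1 (0.044) and Col12a1 (0.063). Leaving out 1 mouse at a time turned the sign of 10 values and left 94, the former in genes whose main value lay near 0 beside its SE. The ranges were −0.12 to 0.13 for Col5a2, −0.14 to 0.0080 for Col12a1, −0.50 to 0.33 for Col11a2, −0.32 to 0.18 for Col5a1, −0.24 to 0.20 for Col16a1, −0.014 to 0.19 for Col7a1, −0.10 to 0.71 for Col6a2 and −0.48 to 0.018 for Col6a3. Col5a2 turned without B1M or B3M, Col7a1, Col5a1, Col11a2 and Col16a1 without B3M, Col6a2 without B5M, Col6a3 without B7F, and Col12a1 without B1M or B7F. The cause was not tested. With the sign kept, leaving out 1 mouse moved the value by over 1.5 times for Col23a1 (0.26 to 0.79), Col1a2 (0.59 to 1.70), Col4a5 (0.039 to 0.21), Col14a1 (−1.36 to −0.33), Col6a1 (−0.92 to −0.33) and Col17a1 (−0.10 to −0.02), none of them called.

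The log2 difference of the summed epithelial collagens ran from −0.05 to 0.03 and that of the stromal ones from 0.08 to 0.15 over the fits leaving out 1 mouse. Collagens with an edgeR unadjusted p under 0.05 numbered 5 of 18 tested without B1M and 0 of 16 without B7M. They numbered 3 of 43 without the filter and 6 of 19 without both B1M and B3M. The share of all genes under this p was counted in the main fit only (7.24%). The counts of the other fits therefore cannot be set against all genes. Small pools of cells, 6 pairs and counts of under 10 in many libraries limit the precision for the stromal and untested members. The labels give no batch, age differed in 1 mouse only, and counts per gene do not separate transcripts of 1 gene.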
